A study of Mus musculus with 3 samples.

Results

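The immunoglobulin genes are the V, D, J and constant (C) gene segments that B cells join and transcribe to make antibody. They were taken here as all genes whose biotype in the deposited tables begins with IG_, and 268 of the 25759 genes listed met that rule. Of these, 218 were V, 19 were D, 14 were J and 13 were C genes, and 4 carried the biotype IG_LV. The heavy chain locus on chromosome 12 held 146 of them and the κ locus on chromosome 6 held 110. The remaining 12, on chromosome 16, formed the λ locus. All but 6 carried a name that starts with *Igh*, *Igk* or *Igl*.

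The genes were read in RNA from TFR cells, the follicular regulatory T cells that carry Foxp3 and CXCR5. These cells came from spleen and mesenteric lymph nodes of C57BL/6J mice that received 125 µg NP-KLH in alum and a boost on day 7, and they were sorted on day 10 as B220-CD4+CXCR5+GITRhi cells positive for GFP from the *Prdm1* locus. There was 1 library for each of 3 genotypes. The library called N came from Nfatc1fl/fl.Prdm1gfp/+.FIC mice, αA from Nfatc1caaA.Prdm1gfp/+.FIC mice and PαA from Nfatc1caaA.Prdm1gfp/fl.FIC mice. FIC is a Cre recombinase made from the *Foxp3* locus, so that floxed *Nfatc1*, the active NFATc1/αA transgene or floxed *Prdm1* is altered in Foxp3+ cells, while all 3 genotypes also carry the GFP reporter on 1 *Prdm1* allele. The number of mice behind each library is not given in the sources used here.

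*Nfatc1* did not separate the labels, with 14053 exon reads (N), 12737 (αA) and 6124 (PαA), so N, αA and PαA are used below as names of libraries. With 1 library per genotype there was no test and no spread between mice, and every interval given is an exact 95% interval that covers counting error only. The differences are therefore differences between libraries and not between genotypes.

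A B cell builds its heavy chain from V, D and J segments and its light chain from V and J segments of the κ or the λ locus. The rearranged V region is spliced to a C region that sets the antibody class, IgM and IgD first and IgG, IgE or IgA after class switching. Plasma cells, the antibody-secreting end stage of this lineage, hold very large amounts of immunoglobulin mRNA, carry little B220 and express Blimp-1, the product of *Prdm1*. C regions can also be transcribed from unrearranged loci without a V segment. In C57BL/6 mice the response to the hapten NP is known for the use of the heavy V gene *Ighv1-72* together with a λ light chain.

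The library totals were 29726219 (N), 27239921 (αA) and 25465829 reads (PαA), and levels below are given as RPM, the reads of a gene per 1000000 of these totals. Of the 268 immunoglobulin genes, 262 had an exon length of 0 in the tables, so the exon columns and RPKM (RPM per kilobase of exon) could not count them. The summed exon reads were 96 (N), 213 (αA) and 547 (PαA). The summed gene reads, which count any read within the gene's span, were 28621, 46536 and 35905. The exon columns thus held 0.335%, 0.458% and 1.52% of the immunoglobulin reads, and the levels below are gene reads unless exon reads are named. Gene reads take in reads within introns, and over all genes the intron columns held 1038142 reads (N), 1357359 (αA) and 946877 (PαA). The part of unspliced RNA in the values below was not tested. The 3453 other genes with an exon length of 0 had 5107, 5598 and 4730 RPM in N, αA and PαA.

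Immunoglobulin RNA was present in all 3 libraries. It reached 963 RPM in N (952 to 974), 1708 in αA (1693 to 1724) and 1410 in PαA (1395 to 1425). The log2 ratio of αA to N was 0.83 (0.81 to 0.85), that of PαA to αA -0.28 (-0.30 to -0.26), and that of PαA to N 0.55 (0.53 to 0.57). αA thus had the highest and N the lowest sum. The order of αA and PαA rested on 1 gene, *Ighm*. Without it the sums were 408, 579 and 870 RPM in N, αA and PαA, and the ratio of PαA to αA turned to 0.59 (0.56 to 0.62). By exon reads, which do not include *Ighm*, the levels were 3.23, 7.82 and 21.5 RPM. Their log2 ratio was 1.28 (0.92 to 1.64) for αA over N, 1.46 (1.23 to 1.69) for PαA over αA and 2.73 (2.42 to 3.06) for PαA over N. These exon reads lay on only 2 genes in N and 3 each in αA and PαA. They therefore do not give the level of the whole set. There were 4, 111 and 350 on κ V genes and 92, 102 and 197 on λ C genes. By unique exon reads the log2 ratios were, in the same order, 0.66 (0.23 to 1.10), 1.27 (0.94 to 1.60) and 1.93 (1.56 to 2.31). In RNA from a sorted population, more cells of a type and more RNA per cell cannot be told apart. Of the 268 genes, 184 had a gene read in at least 1 library, 176 had 3 or more reads in 1 of them, and 84 had 0 throughout, among them all 19 D genes.

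As whole loci, the heavy locus carried the most reads in N and αA, and the κ locus in PαA, with 18853 against 16076. Among C genes alone, those of the heavy chain led in all 3 libraries, in PαA with 14768 reads against 10790 for κ. *Ighm*, the C gene of IgM (chr12:113418558-113422730, minus strand, GRCm38), had 16494 gene reads (N), 30763 (αA) and 13750 (PαA). These were 555, 1129 and 540 RPM. The αA library stood apart, with a log2 ratio to N of 1.03 (1.00 to 1.05), while PαA and N differed by -0.04 (-0.07 to -0.01). *Ighm* took 57.6% of all immunoglobulin reads (N), 66.1% (αA) and 38.3% (PαA). *Ighd*, the C gene of IgD (chr12:113406604-113416324), had 27, 68 and 49 reads, or 0.91, 2.50 and 1.92 RPM.

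Several class-switched C genes differed more between the libraries than *Ighm* did, and not in 1 order. Their summed level was 9.82 RPM (N), 53.9 (αA) and 38.1 (PαA), a log2 ratio of 2.45 (2.27 to 2.64) for αA over N and of -0.50 (-0.62 to -0.38) for PαA over αA. As a share of all heavy C reads they made up 1.74% in N (1.54 to 1.95), 4.54% in αA (4.32 to 4.77) and 6.56% in PαA (6.17 to 6.97). The share was thus highest in PαA, although the level was highest in αA.

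*Igha*, the C gene of IgA (chr12:113254830-113260236), had 26 reads (N), 564 (αA) and 343 (PαA), or 0.87, 20.7 and 13.5 RPM. Its log2 ratio to N was 4.57 (4.00 to 5.19) in αA and 3.94 (3.37 to 4.58) in PαA. *Ighg2b*, one of the IgG C genes (chr12:113302965-113307933), had 29, 352 and 241 reads, with log2 ratios to N of 3.73 (3.18 to 4.33) and 3.28 (2.72 to 3.89). Both genes were thus low in N and high in αA and PαA. *Ighg1*, the C gene of IgG1, the class that alum adjuvants favour (chr12:113325240-113330523), had 150 reads (N), 469 (αA) and 17 (PαA). It was lower in PαA than in αA by a log2 ratio of -4.69 (-5.48 to -3.99), and lower than in N by -2.92 (-3.74 to -2.19). *Ighg2c*, the IgG2 class of this mouse strain (chr12:113285325-113288932), showed the opposite order, with 54, 55 and 347 reads. Its log2 ratio was 0.15 (-0.42 to 0.72) for αA over N, within counting error, and 2.75 (2.34 to 3.19) for PαA over αA, and 90.1% of its reads were unique. PαA was thus the library with the least *Ighg1* and the most *Ighg2c*. *Ighg3* had 20, 18 and 15 reads and *Ighe*, the C gene of IgE, had 13, 9 and 6, with intervals that hold a ratio of 1 in each of the 3 pairs.

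**Figure D1:**
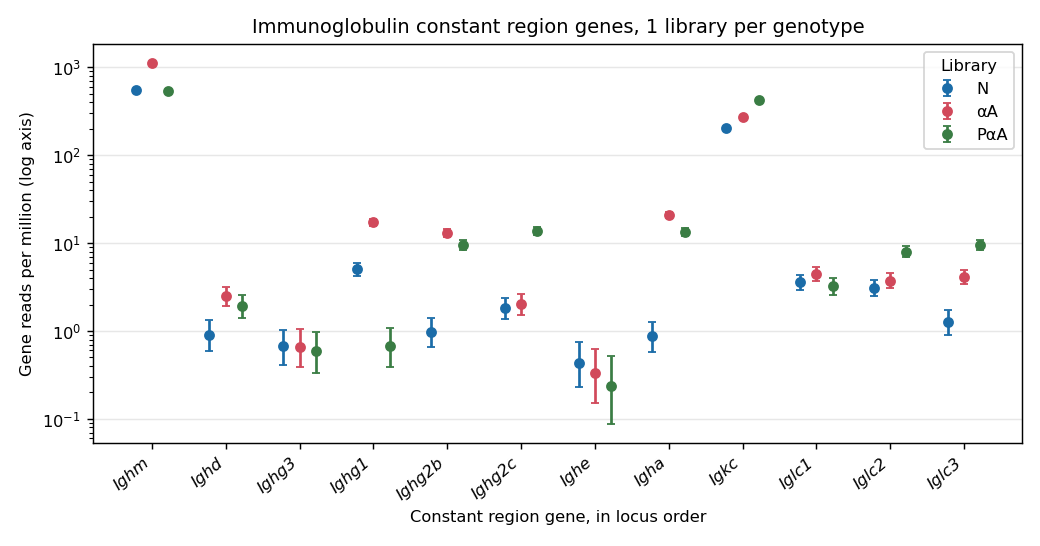
Gene RPM (log axis) of the 12 C genes with at least 3 reads in a library, for N, αA and PαA; points are single libraries and bars exact Poisson 95% intervals of the count. *Ighm* and *Igkc* lie above the other genes, *Ighg1* is lowest in PαA at 0.67, and *Ighg2c* is highest there at 13.6.

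The light chain C genes followed another order than *Ighm*. *Igkc*, the only κ C gene (chr6:70726435-70726966, plus strand), had 6035 reads (N), 7379 (αA) and 10790 (PαA), or 203, 271 and 424 RPM. The log2 ratio was 0.42 (0.37 to 0.47) for αA over N, 0.65 (0.60 to 0.69) for PαA over αA and 1.06 (1.02 to 1.11) for PαA over N. There were 2.73 *Ighm* reads per *Igkc* read in N, 4.17 in αA and 1.27 in PαA. Per kilobase of gene span, which for *Ighm* includes introns, *Igkc* was the more abundant of both in each library, at 382, 509 and 796 RPM per kilobase against 133, 271 and 129 for *Ighm*. *Igkc* and the κ J genes overlap *Gm30211*, a long noncoding RNA on the same strand in GENCODE M21, and reads of it cannot be told apart from theirs here.

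The λ C genes were rare beside *Igkc*, with a share of the light chain C reads of 3.76% (3.31 to 4.26) for N, 4.37% (3.92 to 4.85) for αA and 4.68% (4.30 to 5.09) for PαA. *Iglc1* had 106, 122 and 83 reads and made up 44.9%, 36.2% and 15.7% of the λ C reads. *Iglc3* had 38, 113 and 243 reads, with a log2 ratio of 2.90 (2.40 to 3.43) for PαA over N. *Iglc2* had 92, 102 and 204 reads, and its log2 ratio for PαA over N was 1.37 (1.01 to 1.74). The largest share of λ C reads was thus that of *Iglc1* in N and that of *Iglc3* in PαA, while *Iglc4* had 0 reads in every library, which allows up to 3 reads. *Iglc1*, *Iglc3* and *Iglv1* overlap the antisense transcript *2010309G21Rik* of GENCODE M21, and the strand used in counting is not given in the sources used here.

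The V genes gave a second reading of the same loci. κ V genes had 4305 reads (N), 4848 (αA) and 7815 (PαA), or 145, 178 and 307 RPM. Heavy V genes had 808, 1052 and 1254 reads, and λ V genes had 129, 333 and 446. In all 3 loci N had the lowest and PαA the highest level of V reads. All V genes together had a log2 ratio of 0.38 (0.32 to 0.43) for αA over N, 0.71 (0.66 to 0.75) for PαA over αA and 1.08 (1.03 to 1.13) for PαA over N.

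Reads on V genes and on C genes differed less in proportion in the κ than in the heavy locus. For each 100 *Igkc* reads, N had 71.3 κ V reads (68.6 to 74.2), αA had 65.7 (63.3 to 68.1) and PαA had 72.4 (70.3 to 74.6). In the heavy locus N had 4.81 V reads per 100 C reads (4.47 to 5.16), αA had 3.26 (3.06 to 3.46) and PαA had 8.49 (8.01 to 9.0). Heavy V reads were thus few beside heavy C reads, most of all in αA, where *Ighm* was highest. Set against the κ V genes, heavy V genes had 18.8 reads per 100 in N, 21.7 in αA and 16.05 in PαA. The heavy C spans are longer than the *Igkc* span and hold introns, so the proportions compare libraries and not loci. The part of unrearranged transcripts in the *Ighm* reads was not tested.

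**Figure D2:**
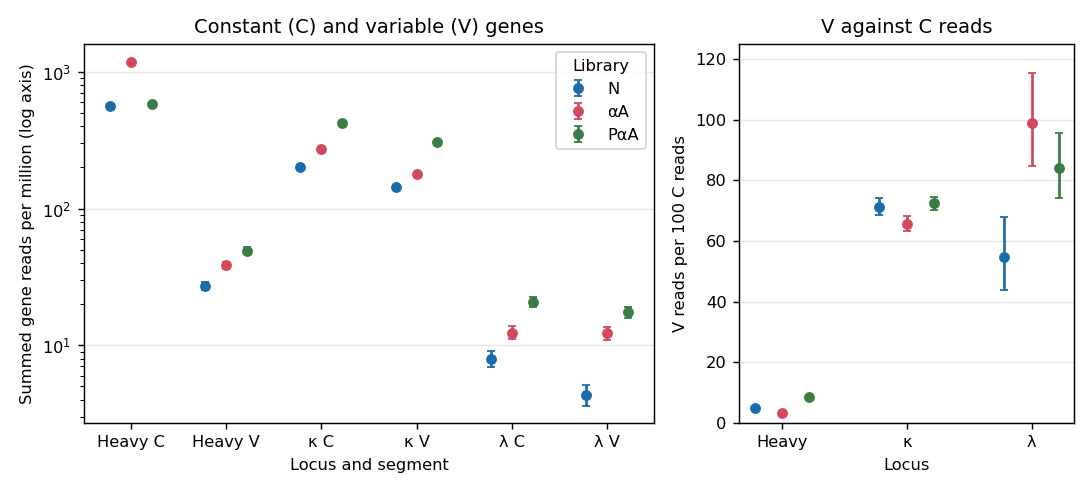
Left, summed gene RPM (log axis) of the C and V genes of each locus in N, αA and PαA. Right, V reads per 100 C reads in the same loci; bars are exact 95% counting intervals. Heavy C genes are highest in αA, while κ and λ genes and all V genes are highest in PαA.

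J segments, the short exons between V and C, had 295, 287 and 298 reads in N, αA and PαA, or 9.92, 10.5 and 11.7 RPM. *Igkj2* had 153, 74 and 149 reads and *Igkj5* 22, 37 and 84. *Igkj4* had 4, 14 and 6 reads, *Igkj1* 0, 3 and 5, and *Igkj3* 0. The κ J reads thus lay mostly on *Igkj2*, and the share on *Igkj5* was largest in PαA. The 4 κ J coding sequences with reads are shown 5′ to 3′ because they are short and close relatives. All κ J reads were nevertheless unique, 179 in N, 128 in αA and 244 in PαA. Capitals mark the letters TTCGG, which cover the conserved phenylalanine codon of the J region.
Igkj1 (chr6:70722562-70722599): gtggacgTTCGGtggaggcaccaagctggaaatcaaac
Igkj2 (chr6:70722916-70722954): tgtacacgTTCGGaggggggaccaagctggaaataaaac
Igkj4 (chr6:70723548-70723585): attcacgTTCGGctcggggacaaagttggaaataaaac
Igkj5 (chr6:70723886-70723923): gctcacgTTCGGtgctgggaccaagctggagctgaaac
All 4 lie on the plus strand of GRCm38. In the heavy locus *Ighj1* had 25, 96 and 18 reads, *Ighj2* 26, 10 and 21, *Ighj3* 29, 6 and 10, and *Ighj4* 36, 47 and 5. The 4 heavy J genes thus had similar counts in N, whereas *Ighj1* led in αA. The λ J genes, *Iglj1* among them, had 0 reads in every library.

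*Ighv1-72*, the heavy V gene known from the NP response, was listed with 0 gene reads in N, αA and PαA. That count has to be read beside its nearest relatives. Over its coding sequence *Ighv1-72* was 99.1% identical to *Ighv1-62-3* and 95.4% identical to *Ighv1-53*, and 91.4% of its stretches of 50 bases occurred in another V gene as well. *Ighv1-62-3* had 0 reads (N), 40 (αA) and 92 (PαA), and none of these reads was unique to it. *Ighv1-53* had 92, 45 and 45 reads, of which 43, 12 and 5 were unique. Together the 3 genes had 92, 85 and 137 reads, of which 43, 12 and 5 were placed on *Ighv1-53* alone. Whether the non-unique reads came from *Ighv1-72* or from its copies cannot be told here. The first 200 coding bases of the V exon are shown for the 3 genes, 5′ to 3′ on the minus strand of GRCm38, with capitals at bases that differ from *Ighv1-72*.
Ighv1-72 (chr12:115758089-115758288): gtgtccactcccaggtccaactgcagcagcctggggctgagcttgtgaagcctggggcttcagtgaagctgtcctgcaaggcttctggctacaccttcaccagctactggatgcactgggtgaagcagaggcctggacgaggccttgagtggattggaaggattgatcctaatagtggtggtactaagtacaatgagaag
Ighv1-62-3 (chr12:115461104-115461303): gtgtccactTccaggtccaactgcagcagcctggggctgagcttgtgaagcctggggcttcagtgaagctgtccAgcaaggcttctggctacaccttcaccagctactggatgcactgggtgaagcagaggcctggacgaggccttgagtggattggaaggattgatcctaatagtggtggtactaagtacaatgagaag
Ighv1-53 (chr12:115158508-115158707): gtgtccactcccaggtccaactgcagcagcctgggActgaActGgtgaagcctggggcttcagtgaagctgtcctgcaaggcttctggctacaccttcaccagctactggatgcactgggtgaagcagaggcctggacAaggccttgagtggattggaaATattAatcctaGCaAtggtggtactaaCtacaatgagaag
In this stretch *Ighv1-62-3* differs from *Ighv1-72* at 2 bases and *Ighv1-53* at 11. Beyond them, other heavy V genes had modest counts. The leading one by unique reads was *Ighv1-64* in N, with 89 of the 641 unique heavy V reads, *Ighv8-8* in αA with 98 of 804, and *Ighv1-66* in PαA with 134 of 923. *Ighv1-64* had 92, 90 and 0 gene reads in N, αA and PαA, and *Ighv1-66* had 2, 14 and 138.

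*Iglv1*, the λ V gene of the NP response (chr16:19085017-19085500, minus strand), had 78 reads (N), 274 (αA) and 354 (PαA), or 2.62, 10.1 and 13.9 RPM. Its log2 ratio was 1.94 (1.57 to 2.32) for αA over N and 0.47 (0.24 to 0.70) for PαA over αA. *Iglv2* had 46, 59 and 82 reads and *Iglv3* 5, 0 and 10. *Iglv1* took 56.4% (46.9 to 65.6) of the unique λ V reads of N, 79.7% (74.6 to 84.2) of those of αA and 78.1% (73.8 to 82.0) of those of PαA. The share was thus lowest in N and close in αA and PαA, whose intervals overlap. The higher counts of *Iglv1* were not matched by *Iglc1*, the C gene it is usually joined to, which had 3.57 RPM in N, 4.48 in αA and 3.26 in PαA. *Iglc3* did have the order of *Iglv1*, at 1.28, 4.15 and 9.54 RPM, and so did *Iglc2*, at 3.09, 3.74 and 8.01. Which C gene the *Iglv1* reads were joined to was not tested.

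The V genes with the most unique reads differed between the libraries. In N the leading 5 were *Igkv1-110*, *Igkv10-96*, *Igkv3-4*, *Igkv5-39* and *Igkv3-10*. In αA they were *Igkv3-2*, *Igkv5-39*, *Igkv6-25*, *Iglv1* and *Igkv3-5*, and in PαA *Igkv16-104*, *Igkv8-24*, *Iglv1*, *Igkv14-111* and *Igkv5-39*. The 3 lists held 12 distinct genes, and only *Igkv5-39* was in all of them, with 230 reads (N), 273 (αA) and 252 (PαA), all unique. Its log2 ratio for PαA over αA was -0.02 (-0.27 to 0.23). The lists rank unique reads, and the first place changed in N and αA when all gene reads were counted. In N *Igkv1-117* had 756 gene reads and *Igkv10-96* 601, above the 506 of *Igkv1-110*. In αA *Igkv6-25* had 462, above the 448 of *Igkv3-2*. In PαA *Igkv16-104* led by either count, with 479 gene reads, all unique.

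*Igkv1-110* had 506 unique reads (N), 43 (αA) and 225 (PαA), and took 13.4% of the unique V reads of N (12.4 to 14.6). *Igkv3-2* had 7, 427 and 60 unique reads, and took 9.24% in αA (8.42 to 10.1). *Igkv16-104* had 9, 26 and 479, and took 6.67% in PαA (6.10 to 7.27). Each of the 3 genes was at its highest where it led, which follows in part from picking them as the leaders of a library. The size of their ratios is subject to the same choice. *Igkv1-110* differed least, with a log2 ratio of -0.95 (-1.18 to -0.72) for PαA over N. The log2 ratio was -3.43 (-3.92 to -2.98) for αA over N for *Igkv1-110*, 6.13 (5.07 to 7.45) for *Igkv3-2* in the same pair, and 4.30 (3.73 to 4.93) for PαA over αA for *Igkv16-104*. The last 80 coding bases of the V exon are shown for these leaders, for the shared *Igkv5-39* and for *Iglv1*, because this end carries the start of the third hypervariable loop. Capitals mark the codon of the conserved cysteine, found as the end of the pattern TANTNNTGN on the coding strand, which 96.3% of the 218 V exons hold in their last 80 bases.
Igkv1-110 (chr6:68271188-68271267, plus strand): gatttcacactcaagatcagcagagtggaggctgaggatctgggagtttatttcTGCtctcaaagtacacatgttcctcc
Igkv3-2 (chr6:70698988-70699067, plus strand): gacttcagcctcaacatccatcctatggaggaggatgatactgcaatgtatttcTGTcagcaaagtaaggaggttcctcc
Igkv16-104 (chr6:68425993-68426072, plus strand): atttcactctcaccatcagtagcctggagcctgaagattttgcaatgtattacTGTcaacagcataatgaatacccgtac
Igkv5-39 (chr6:69900424-69900503, minus strand): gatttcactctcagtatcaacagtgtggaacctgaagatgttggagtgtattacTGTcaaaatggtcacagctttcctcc
Iglv1 (chr16:19085017-19085096, minus strand): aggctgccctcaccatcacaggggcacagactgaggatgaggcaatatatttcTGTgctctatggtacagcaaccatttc
The κ leaders are distant relatives, with identities of 60.9% to 67.9% over the coding sequence of *Igkv1-110*, *Igkv3-2*, *Igkv16-104* and *Igkv5-39*.

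**Figure D3:**
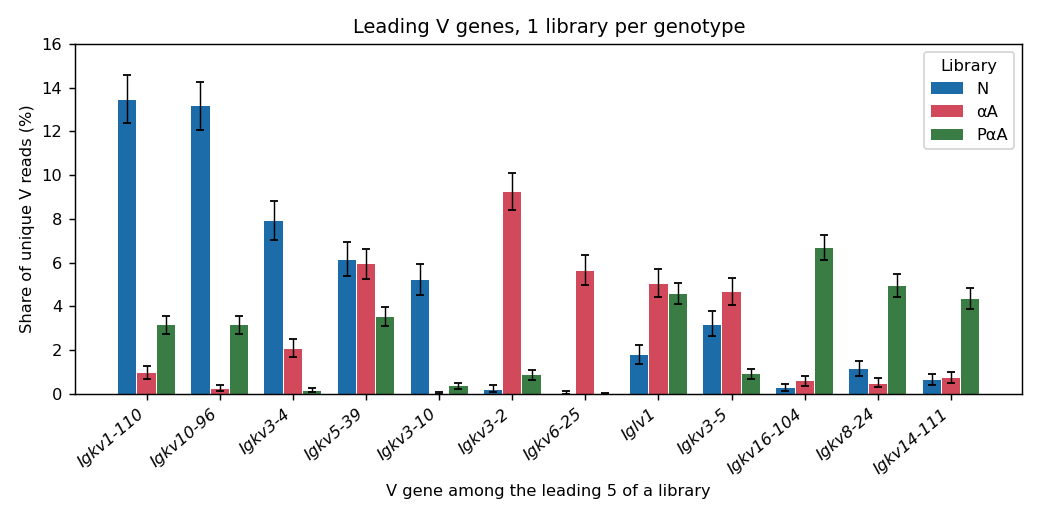
Share of all unique V reads (percent) held by each V gene that was among the leading 5 of a library, in N, αA and PαA; bars are single libraries with exact binomial 95% intervals. *Igkv1-110* and *Igkv10-96* lead N, *Igkv3-2* leads αA and *Igkv16-104* leads PαA, while *Igkv5-39* lies between 3.51% and 6.11% in all 3.

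The spread of reads over all V genes was narrowest in N and widest in PαA, and so was that over κ V genes alone. The leading 5 V genes took 45.8% of the 3766 unique V reads of N, 30.4% of the 4620 of αA and 24.0% of the 7184 of PαA. The inverse Simpson number, which gives how many equally used genes would show the same spread, was 17.0, 29.4 and 40.1. The heavy V genes did not follow this order, with 17.9, 15.2 and 16.9, nor did the λ V genes, with 2.11, 1.48 and 1.54. With at least 3 unique reads, 81 V genes were detected in N, 78 in αA and 99 in PαA. The genes themselves overlapped in part. Of the 134 V genes detected in any library, 41 were detected in all 3, 42 in a pair of them and 51 in a single one, which was N for 21, αA for 8 and PαA for 22. Of the 44 V genes with at least 50 unique reads in PαA, 15 had 0 gene reads in another library, and 9 of 28 did so in αA and 2 of 15 in N. The share of all genes with such gaps was not computed. These counts therefore do not show whether V genes overlap less than other genes do. Reads of one transcript species are not independent molecules, and the cells or mice behind these reads were not counted.

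Grouped by the family in their names, the κ V reads were divided differently in the 3 libraries. *Igkv1* genes held 32.4% of the κ V reads (N), 5.07% (αA) and 12.2% (PαA). *Igkv3* genes held 21.6%, 31.5% and 7.05%. *Igkv4* genes, the largest κ family with 26 genes, held 3.21%, 10.4% and 26.7%. A different family thus led in each library, *Igkv1* in N, *Igkv3* in αA and *Igkv4* in PαA. The level of *Igkv4* genes was 4.64, 18.4 and 82.1 RPM, a log2 ratio of 4.14 (3.89 to 4.40) for PαA over N. In that pair, 10.6% of all genes with at least 20 reads were more than 2-fold higher in PαA and 13.2% were lower. Of the 15 *Igkv4* genes with at least 20 reads in 1 of these libraries, 13 were more than 2-fold higher in PαA and 1 was lower, *Igkv4-91* with 33, 0 and 14 reads. The family was picked as the leader of PαA. With 138 reads in N and 2090 in PαA, its genes reached 20 reads mostly through PαA. The count therefore follows largely from that choice and adds nothing to the family sum. Among the 15 genes, *Igkv4-71* had 0, 115 and 395 reads, *Igkv4-72* 27, 84 and 299, *Igkv4-59* 0, 85 and 232, and *Igkv4-68* 0, 8 and 256. Near-identical members can trade reads within a family, and *Igkv4* reads were unique to 1 gene for 121 of 138 in N, 272 of 502 in αA and 1128 of 2090 in PαA.

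**Figure D4:**
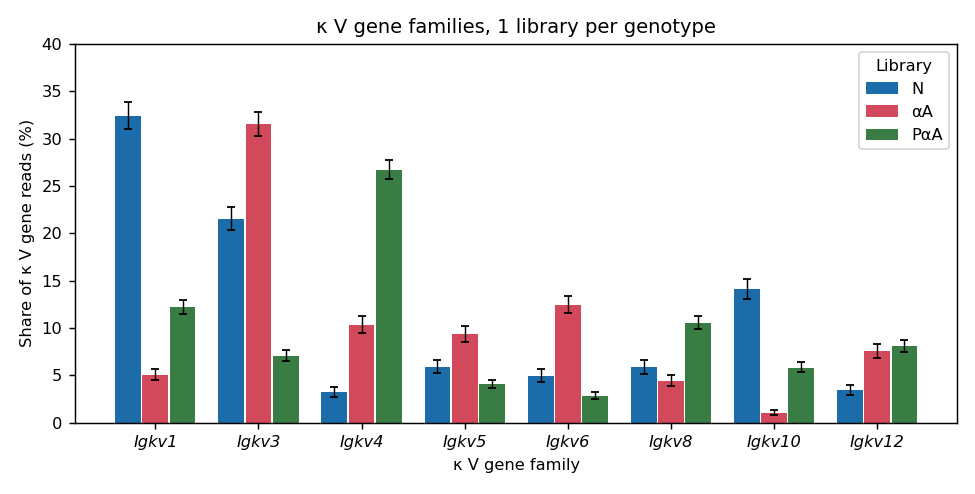
Share of κ V gene reads (percent) by family in N, αA and PαA, for the 8 families with at least 1000 reads over the libraries; bars are single libraries with exact binomial 95% intervals. *Igkv1* is the largest family in N at 32.4%, *Igkv3* in αA at 31.5% and *Igkv4* in PαA at 26.7%.

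How far reads of single V genes can be trusted depended on their relatives. Of the 54 V genes with at least 100 reads over the libraries, 8 shared no 50-base stretch of coding sequence with another V gene, and all their reads were unique. Among the 10 that shared at least 50% of such stretches, the median share of unique reads was 32.0%. *Igkv1-117* and *Igkv1-110* show how such reads were placed. They are 97.2% identical, and *Igkv1-110* had 506, 43 and 225 reads, all of them unique, whereas *Igkv1-117* had 756, 41 and 351 reads, of which 154, 3 and 96 were unique. No non-unique read was thus listed for *Igkv1-110*, although 44.2% of its 50-base stretches occur in another V gene. Coding bases 81 to 180 of their V exons, 5′ to 3′ on the plus strand, carry capitals where *Igkv1-117* differs from *Igkv1-110*.
Igkv1-110 (chr6:68271035-68271134): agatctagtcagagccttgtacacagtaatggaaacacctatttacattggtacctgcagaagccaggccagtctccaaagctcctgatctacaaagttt
Igkv1-117 (chr6:68121595-68121694): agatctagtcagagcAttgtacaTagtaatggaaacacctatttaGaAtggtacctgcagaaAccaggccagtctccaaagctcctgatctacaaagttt
The libraries had similar unique shares of V reads, at 71.8%, 74.1% and 75.5% in N, αA and PαA.

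Gene by gene, immunoglobulin genes passed a filter on reads and ratio more often than all genes did. A gene was counted when it had at least 20 gene reads in the higher library of the pair and a ratio above 2 in RPM, with the lower library set to at least 3 reads. Between αA and N, 94 immunoglobulin genes had enough reads, and 51 (54.3%) were higher and 22 (23.4%) lower in αA. Of all genes with enough reads, 20.7% were higher and 5.58% lower, and of the other genes with an exon length of 0, 21.0% and 13.9%. Between PαA and αA, 108 had enough reads, and 54 were higher and 25 (23.1%) lower in PαA. The shares were 4.47% and 21.2% of all genes, and 11.2% and 29.6% of the other genes with an exon length of 0. Between PαA and N, 73 of 110 (66.4%) were higher and 20 (18.2%) lower, against 10.6% and 13.2% of all genes and 13.3% and 24.5% of those with an exon length of 0. The shares of immunoglobulin genes that were higher thus stood above the background in each pair, while the shares that were lower in PαA lay near it. Their median log2 ratios were 1.58, 1.03 and 2.65 in the 3 pairs, against -0.02, -0.22 and -0.18 over all genes. The pairs share libraries and are not independent of each other.

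Large contrasts came from V genes that had many reads in 1 library and few or none in another. *Igkv3-7* had 190 reads in αA, all unique, and 0 in N and PαA, so it was at least 69.1-fold higher in αA than in N. *Igkv6-17* had 157, 24 and 0 reads, and was at least 44.8-fold lower in PαA than in N. *Igkv10-96* had 601, 10 and 309 reads, and *Igkv6-25* 43, 462 and 11. *Igkv8-24* had 42, 21 and 354 reads and *Igkv14-111* 23, 32 and 312, all of them unique. No library was thus highest throughout, and the V genes with at least 100 reads that passed were 10 higher and 7 lower for αA over N, 20 and 7 for PαA over αA, and 23 and 3 for PαA over N. The share of all genes that pass at 100 reads was not computed, so these counts have no background beside them.

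By a filter on exon signal, an RPKM above 5 in at least 1 library and a ratio above 2, only 2 of the 268 genes had enough exon signal to enter. *Igkv4-71* (chr6:69243158-69243688) had 0, 100 and 319 exon reads in N, αA and PαA, or an RPKM of 0, 12.7 and 43.5, and it passed in all 3 pairs. Only 28 of its 100 exon reads in αA and 71 of its 319 in PαA were unique, and 42.9% of its 50-base stretches occurred in another V gene. *Iglc2* (chr16:19198396-19200351) had an RPKM of 5.11, 6.18 and 12.8 and passed between PαA and each of the others. Of all 7017 genes that entered, 4.25% passed for αA over N, 4.63% for PαA over αA and 10.3% for PαA over N. *Igkv4-62* had 0, 11 and 31 exon reads and *Igkv4-54* 4, 0 and 0, and both stayed below the level.

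Genes that mark the B lineage without being immunoglobulin genes were read beside them. Of 10 plasma cell genes, *Jchain*, which links IgM and IgA into polymers, had the same order as *Igkc*, with an RPKM of 44.3 in N, 58.4 in αA and 94.8 in PαA. *Sdc1*, the plasma cell surface protein CD138, had 0.74, 1.03 and 5.97, and *Mzb1*, a chaperone of immunoglobulin assembly, 4.01, 6.69 and 6.94. These 3 were lowest in N. *Tnfrsf17*, the plasma cell receptor BCMA, had 5, 21 and 0 reads, and *Fkbp11* 15, 0 and 13. *Xbp1*, *Txndc5* and *Irf4*, which T cells also express, had an RPKM of 46.7, 50.4 and 50.9, of 18.4, 19.1 and 20.3 and of 20.5, 17.9 and 12.3. The other genes of the list, *Derl3* and *Eaf2*, had an RPKM between 0.30 and 1.16, with 38, 25 and 39 reads and 43, 18 and 25 reads. The summed list had 359, 381 and 426 RPM in N, αA and PαA. Most of its 10673 reads in N lay on *Xbp1* (3736), *Irf4* (2991) and *Txndc5* (1832). *Jchain* had 1833 reads in N and 3362 in PαA. The part of T cells in the reads of the plasma cell list was not tested.

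The summed level of B cell genes had the opposite order. The 15 genes read for it had 109.6 RPM (N), 74.0 (αA) and 64.0 (PαA), and 12 of them were lower in αA than in N. In PαA 10 were lower than in N and 5 were higher. Of all 13623 genes with at least 20 gene reads in that pair, 8373 were lower in PαA and 5250 higher by gene RPM. The count of B cell genes in PαA thus lay near the background. Between αA and N, 7624 of all 14826 such genes were lower in αA. The fall of the sum lay mostly in *Pou2af1*, with 1044, 451 and 317 reads, and *Cd22*, with 678, 283 and 200. The part of T cells in the reads of this list was not tested. *Ms4a1*, which encodes CD20, had an RPKM of 1.88, 1.47 and 1.12. *Cd79a* and *Cd79b*, the signalling chains of the B cell receptor, had 1.85, 1.64 and 3.96 and 11.5, 8.85 and 8.67. *Pou2af1*, a coactivator of immunoglobulin promoters, had 13.8, 6.50 and 4.88. *Pax5*, *Ebf1*, *Fcer2a*, *Cr2* and *Fcrla* stayed under an RPKM of 0.5 in each library. The remaining genes were *Cd22* (4.53, 2.06 and 1.56), *Cd72* (3.003, 4.71 and 2.20), *Blk* (1.37, 0.85 and 0.44), *Bank1* (1.10, 0.92 and 1.13), *Blnk* (1.96, 1.75 and 1.65) and *Spib* (1.51, 0.83 and 1.81). The summed B cell list was thus highest in N, where the summed immunoglobulin reads were lowest. The 3 germinal centre B cell genes *Rgs13*, *Mybl1* and *Nuggc* had 37, 22 and 7 reads in sum, and the 6 genes of early B cells and recombination (*Rag1*, *Rag2*, *Dntt*, *Vpreb1*, *Vpreb3* and *Igll1*) had 57, 59 and 0.

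**Figure D5:**
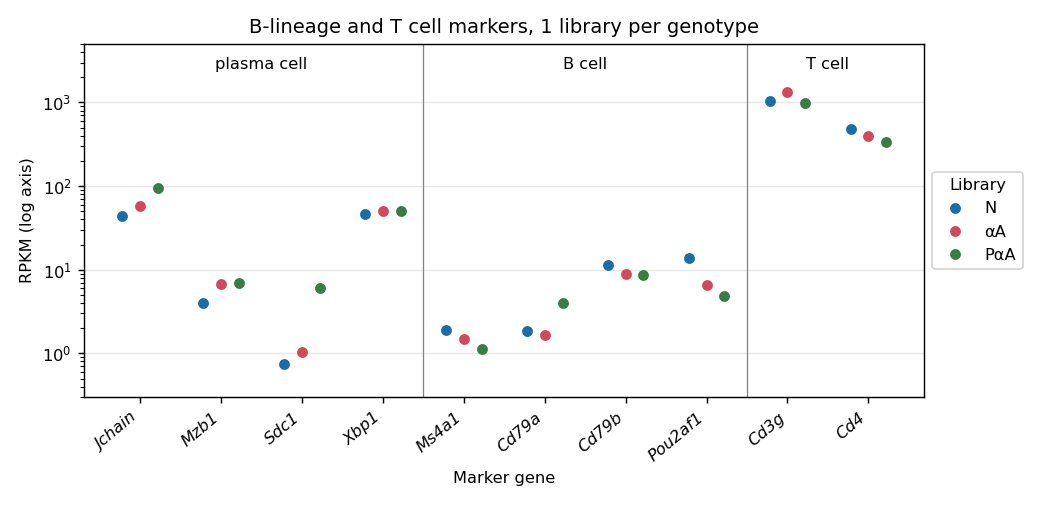
RPKM (log axis) of plasma cell, B cell and T cell marker genes in N, αA and PαA; points are single libraries and carry no error bar. *Jchain* and *Sdc1* are highest in PαA, *Ms4a1* lies between 1.12 and 1.88, and *Cd3g* and *Cd4* lie above the B-lineage genes drawn. The genes drawn are a selection from each list. Of all 10 plasma cell genes, 7 were higher and 3 lower in PαA than in N, among the latter *Irf4* (20.5 and 12.3 in N and PαA), which is not drawn. Of all 13623 genes with at least 20 gene reads in that pair, 5250 were higher and 8373 lower by gene RPM. The T cell gene *Cd28*, also not drawn, had 82.8 in PαA, below *Jchain* at 94.8.

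T cell markers were abundant in each library. The 8 genes *Cd3d*, *Cd3e*, *Cd3g*, *Cd4*, *Cd2*, *Cd5*, *Cd28* and *Lck* had an RPKM between 68.8 and 1346 and a sum of 6753, 7163 and 5849 RPM, with 0 genes at 0 reads. *Prdm1*, whose locus drives the GFP of the sort, had an RPKM of 25.6, 24.9 and 10.0. Class II antigen presentation genes did not move as 1 group. *H2-Aa* had 47.4, 68.2 and 107, *H2-Ab1* 30.0, 47.7 and 74.5 and *H2-Eb1* 39.8, 57.0 and 67.7, all in the order of *Igkc*, whereas *Cd74* had 325, 160 and 140. *H2-DMb2* had 2.22, 2.72 and 3.20 and *Ciita* 0.33, 0.66 and 0.40. Of 9 myeloid genes listed, 3 had 0 reads in αA, *S100a9*, *Retnlg* and *Elane*, with *S100a9* at 235 and 153 reads in N and PαA, while *S100a8* had an RPKM of 12.8, 0.83 and 11.9. *Lyz2* had 214, 134 and 184, *Cst3* 164, 191 and 213, *Cd68* 16.4, 19.5 and 18.0, *Csf1r* 6.25, 10.6 and 6.62, and *Cd14* 2.33, 1.31 and 0.80. The summed myeloid list had 505, 431 and 506 RPM. The part of B-lineage, myeloid or other cells in the immunoglobulin reads was not tested.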

How the data were processed

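RNA of sorted TFR cells was measured in 3 libraries, grouped by their labels into N, αA and PαA, 1 each. From poly(A) RNA the authors obtained single-end reads, which they cleaned of adapters and mapped on GRCm38 with the default RNA-Seq settings of CLC Genomics Workbench. The deposited counts, total and unique, of exon, intron and gene reads are raw whole numbers. Deposited RPKM and TPM values use a decimal comma. TPM was used only to set an alternative denominator.

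Library totals of 29726219, 27239921 and 25465829 reads were recovered from exon reads, exon length and RPKM. The plan took exon reads as the main measure. Because 262 of 268 immunoglobulin genes have an exon length of 0, gene reads were used for levels, classes, V gene counts and the gene-by-gene filter, a choice made after the data were seen. Members and gene lists were chosen with earlier results of these data known, and the summary by V gene family was added after its values were seen.

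Ratios carry exact Clopper-Pearson and levels exact Poisson 95% intervals, which cover counting error only since PCR reads without molecular identifiers are not independent molecules. A count of 3 reads was the smallest taken as detected and the floor for ratios. Named were all C genes with at least 3 reads, the 5 V genes with the most unique reads in each library, *Ighv1-72*, *Iglv1*, *Iglc1* and *Iglj1*, *Igkv4-71*, genes past the filter with 100 or more reads on their higher side, and every marker but 2 that are not reported here and were left out of the list sums. Of the last V genes those named are examples, and others, such as the relatives printed with *Ighv1-72* and *Igkv1-110*, the leading heavy V genes, the other J genes and λ V genes, were chosen after their values were seen. *Itgam*, the 10th myeloid marker, was not analysed here, nor were V gene promoters. Sequences and spans come from GENCODE M21 (GRCm38), whose spans equal those of the tables for all 268 genes. Identity was taken from global alignments with Biopython 1.88.

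The filter and intervals were tested on simulated counts. Alternatives were unique reads, the TPM denominator, TMM factors of edgeR 4.0.16 and median-of-ratios factors from the exon counts, thinning to the smallest library, and other thresholds. Python 3.11.15, pandas 2.3.3, numpy 2.4.6, scipy 1.17.1, matplotlib 3.10.9 and R 4.3.3 were used.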

Additional observations from a re-analysis of the deposited data

Results flagged for a closer look

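The intron columns, which the exon-read comparisons leave out, held 28525 reads of the immunoglobulin genes in N, 46323 in αA and 35358 in PαA. Each of these sums lies above the 3 reads that a count of 0 allows, and they are shown because nearly all of these genes have an exon length of 0 in the tables.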

How the results depend on the processing

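No paired analysis was possible because each genotype has 1 library, and no replicate could be left out. No immunoglobulin pseudogene is among the genes, so the setting without them gave no value. With gene reads in place of exon reads, the level was 963 RPM in N, 1708 in αA and 1410 in PαA, and the log2 ratio was 0.83 between αA and N, 0.55 between PαA and N and, reversed, -0.28 between PαA and αA; the latter turned with *Ighm*. With unique exon reads the level was 4.15 in αA and 9.97 in PαA, and the ratio to N 0.66 and 1.93. By gene reads, the ratio of αA to N was 0.85 with unique reads, 0.99 with TMM and 1.00 with median-of-ratios factors, 0.80 with the TPM denominator, 0.86 with summed gene reads as total, 0.56 with the reads of genes of exon length 0 as total, 0.51 without *Ighm*, 0.59 also without *Igkc* and 0.38 for V genes alone. That of PαA to αA was in the same order -0.32, -0.21, -0.20 and -0.44, was -0.022 with the genes of exon length 0 as total, and reversed to 0.59 without *Ighm*, 0.53 also without *Igkc* and 0.71 for V genes. That of PαA to N was 0.78 with TMM, 0.79 with median-of-ratios factors, 0.35 with the TPM denominator, 1.09 without *Ighm*, 1.12 also without *Igkc* and 1.08 for V genes. With at least 50 reads, the gene-read filter passed 33 genes higher and 10 lower in αA than in N, and 9 lower in PαA than in N. By RPKM, 2 genes passed between αA and N above an RPKM of 1. With the TPM denominator, a ratio above 3 or 1 added to both RPKM, 1 gene passed between PαA and αA, and with a ratio above 3, 1 passed between PαA and N. By total reads the share of the gene that led by unique reads was 9.65% in N, 7.19% in αA and 5.03% in PαA, and at least 10 unique reads left 49 V genes in N. The other 126 values kept their direction and stayed within the counting interval or within 1.5 times the count. Depth limits genes under about 20 reads, such as *Ighe* and *Ighg3*.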
